A study of Mus musculus with 18 samples.

Results

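The genes examined were Afp, H19, Igf2, Gpc3, Dlk1, Mest, Plagl1 and Peg3, 8 genes that are strongly expressed in fetal liver or tissue and are turned down in mouse liver after birth. They were chosen by name, and the levels of their mRNAs were taken from every microarray probe whose accession led to that name, which gave 9 probes for 7 of the 8 genes, out of 41174 probes and 16535 named genes on the array. No probe was paired with H19 in this way, so the H19 transcript was not analysed here. Only miRNAs made from it were measured. The question was whether the liver of a hypothyroid pup holds more of these transcripts, as a less mature liver would. All pups were C57BL/6 males sampled at post natal day (PND) 15, and all dams drank sugar water. Shortly before sacrifice, per the study's methods, pups of both groups were injected with PBS, a saline buffer. Control litters had sugar water alone. From PND 12, the dams of hypothyroid pups were given methimazole (MMI, 0.05%), which blocks thyroid hormone synthesis, and perchlorate (1%), which blocks iodide uptake by the thyroid, in that water, so that the litters were exposed through dam and water. Liver mRNA was read on microarrays in 5 pups of each group, and miRNA on TaqMan low density arrays (TLDA) in 4 pups of each. A single pup was taken per litter, and the exposure was short, so that the groups describe a transient hypothyroidism in the third week of life.

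Afp encodes alpha-fetoprotein, the main serum protein of the fetus, which the liver stops making after birth under repressors that include Zhx2 and Zbtb20. Igf2, a fetal growth factor, and H19, a non-coding RNA, are neighbours that share enhancers and are expressed from opposite parental chromosomes. Dlk1, Mest, Plagl1 and Peg3 are also imprinted, and together with Igf2 and H19 they belong to a group of growth genes that fall together in many organs after birth. Gpc3, on the X chromosome, encodes a cell surface proteoglycan and, like Afp, returns in liver cancer. Thyroid hormone rises in the mouse during the weeks after birth, when these genes are being turned down.

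By their positions in the RefSeq annotation (GRCm38.p6), miR-675 lies within H19, miR-335 within Mest and miR-483 within Igf2, so these miRNAs were also examined. Whether their levels follow those of the host transcripts was not tested. The mature sequences of those found under the names on the TLDA cards are shown 5′ to 3′, with the seed (bases 2 to 8) in capitals because it sets which mRNAs a miRNA pairs with. The arms of miR-675 lie at chr7:142577112-142577133 (5p) and chr7:142577078-142577099 (3p) on the minus strand. Those of miR-335 lie at chr6:30741314-30741336 (5p) and chr6:30741354-30741375 (3p) on the plus strand.
mmu-miR-675-5p: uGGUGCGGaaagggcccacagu
mmu-miR-675-3p: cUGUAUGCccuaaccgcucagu
mmu-miR-335-5p: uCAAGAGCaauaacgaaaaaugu
mmu-miR-335-3p: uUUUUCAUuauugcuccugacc
The 4 seeds differ from each other. The remaining assay on the cards was miR-483*.

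The promoters of Afp and Igf2 are shown as windows of 300 bases around the transcript start (RefSeq, GRCm38.p6). Both members had higher mean levels in hypothyroid liver, but neither passed the test described below. Capitals mark matches on either strand to AGGTCA, the core bound by thyroid hormone receptors and other nuclear receptors. The Afp window is chr5:90490464-90490763 on the plus strand. The Igf2 window, the most upstream of 4 for this gene, is chr7:142666767-142667066 on the minus strand.
Afp: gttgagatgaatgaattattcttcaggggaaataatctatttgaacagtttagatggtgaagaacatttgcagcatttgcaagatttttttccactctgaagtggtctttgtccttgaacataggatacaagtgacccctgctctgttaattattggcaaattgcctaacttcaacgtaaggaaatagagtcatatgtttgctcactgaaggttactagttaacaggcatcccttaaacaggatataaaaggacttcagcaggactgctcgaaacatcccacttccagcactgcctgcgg
Igf2: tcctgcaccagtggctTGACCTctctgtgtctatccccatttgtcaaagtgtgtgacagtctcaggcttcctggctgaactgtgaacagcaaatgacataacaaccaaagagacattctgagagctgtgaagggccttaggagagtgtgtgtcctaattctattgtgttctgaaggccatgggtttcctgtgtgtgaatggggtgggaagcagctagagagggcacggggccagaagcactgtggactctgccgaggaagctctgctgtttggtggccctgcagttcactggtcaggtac
The Igf2 window held 1 match to AGGTCA, which occurred in 16.3% of all 32851 promoter windows, and the other 3 windows of Igf2 and the windows of Afp and Peg3 held none. Over the 12 windows of the 7 genes found, AGGTCA was in 1 and TGTTTAC, a core of forkhead factors, in 1, against 3.65% of all windows for the last. These matches are letters and not measured sites.

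On each microarray liver RNA was hybridised against universal mouse reference RNA, a mixture of RNA from mouse cell lines, and the values given are log2 ratios of liver to reference, normalized within each array. A ratio of 0 means equal signal in liver and reference, and levels of different probes were not set against each other. Between 76.7% and 82.5% of probes were above the background limit on control arrays, and between 75.9% and 85.4% on hypothyroid arrays. With the dyes as labelled, control 832 and hypothyroid 576, which share slide 141, ran against the other slides (r = -0.97 and -0.98), and with their channels exchanged, as was done here, they ran with them (r = 0.97 and 0.98). Without this slide the differences given below were 1.46 for Afp, 0.99 for Igf2 and 0.86 for Peg3, and with the dyes as labelled 1.17, 0.77 and 0.57. Control 616 stood apart. Over the probes above background with a value on every array, its ratios had a slope of 0.611 on the mean of the other slides. That mean left out slide 141 and control 616. The other 9 arrays had slopes between 0.924 and 1.02, so that the ratios of control 616 were drawn towards 0. The members, the medians of gene lists, and named genes of those lists that it moved by over 1.5 times are therefore also given without it. As a check of the treatment, the 3 thyroid hormone response genes measured had lower means in hypothyroid liver, each with an unadjusted p below 0.05 by limma. At that p 4.07% of all probes were lower. Dio1, a deiodinase of thyroid hormone, differed by -0.94 (standard error (SE) 0.34, adjusted p = 0.603 by limma). Thrsp differed by -1.16 (SE 0.30, adjusted p = 0.343 by limma) and Me1, malic enzyme, by -0.47 (SE 0.11, adjusted p = 0.272 by limma). The median of the 3 was -0.94, or -1.27 without control 616. The animals were separate pups, and the number of arrays limits the precision.

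None of the 7 genes measured passed the test, which asked for a Benjamini-Hochberg adjusted p below 0.05 by limma over all 32056 probes above background. Over all probes 0.00936% (3 probes) passed it. At an unadjusted p below 0.05, 3 of the 7 genes were higher in hypothyroid liver (Afp, Igf2 and Peg3) and 0 were lower. Of all probes, 3.39% were higher and 4.07% lower at that p. The median change of the 7 genes was 0.53, against -0.01 for all probes. Without control 616 the median was 0.21 and the same 3 genes had an unadjusted p below 0.05, against 3.48% of all probes. Every member probe was well above background on all 10 arrays and saturated on none. In a bulk sample fewer cells of a type and less RNA per cell cannot be told apart.

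Afp was the member with the largest difference. The log2 ratios in control livers were 3.33 (616), 4.25 (391), 4.82 (522), 4.92 (832) and 5.50 (881). In hypothyroid livers they were 4.89 (576), 5.69 (891), 5.77 (626), 5.95 (311) and 6.31 (723). Of the hypothyroid livers 4 were above every control and the one on slide 141 was not. The mean was 4.56 ± 0.82 (SD, n = 5) in controls and 5.72 ± 0.53 (SD, n = 5) in hypothyroid pups, a difference of 1.16 (SE 0.37, 95% confidence interval 0.33 to 1.98), or 2.23-fold. The adjusted p was 0.521 by limma, and the exact two-sided permutation p was 0.0238, where 252 assignments allow no p below 0.00794. The array carries 10 spots of this probe, and the SD between spots of one array was between 0.030 and 0.087, smaller than the spread between animals. Without control 616 the difference was 0.85 (95% confidence interval 0.24 to 1.46, exact permutation p = 0.0556).

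**Figure D1:**
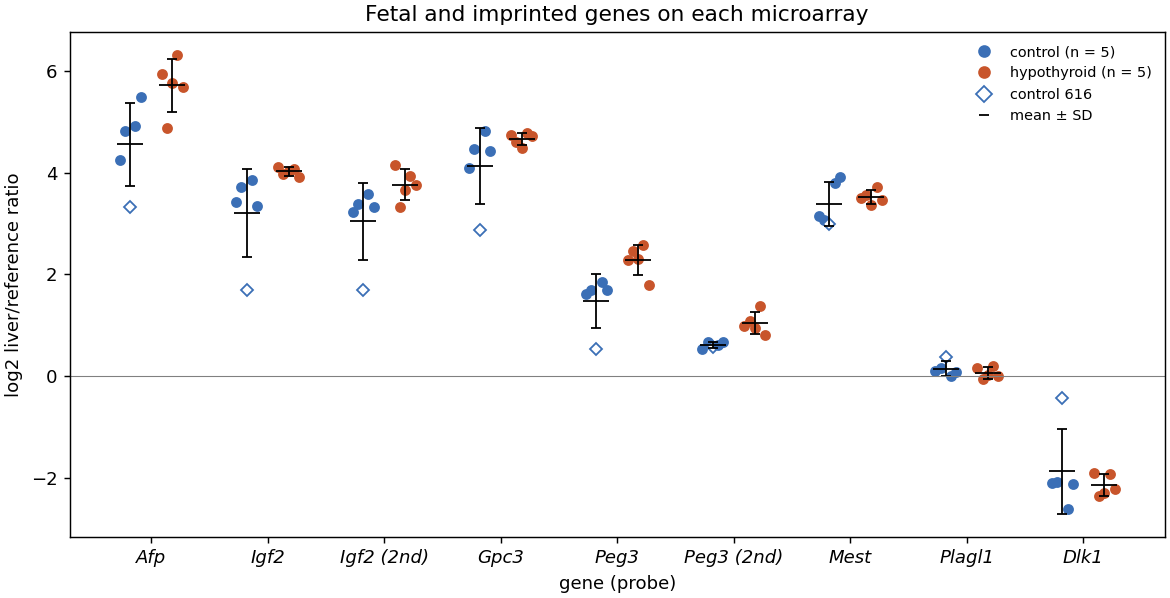
The log2 liver/reference ratio (vertical axis) of each member probe (horizontal axis; "2nd" is the dimmer probe of a gene) is plotted for each of 5 control and 5 hypothyroid arrays, with the mean and SD of each group and control 616 as an open diamond. Control 616 is the lowest control for Afp, both Igf2 probes, Gpc3, Mest and the brighter Peg3 probe, and the highest for Plagl1 and Dlk1. The groups do not overlap for the brighter Igf2 probe and the dimmer Peg3 probe.

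Igf2 was read by a pair of probes. On the brighter, controls were at 1.69 (616), 3.34 (881), 3.43 (391), 3.73 (522) and 3.86 (832). Hypothyroid livers were at 3.91 (891), 3.98 (576), 4.04 (626), 4.08 (723) and 4.12 (311). Every hypothyroid liver was thus above every control, though the nearest pair differed by less than the SD of either group, and 1.08% of all probes were separated in this direction. The hypothyroid livers lay close together, with an SD of 0.084 against 0.87 in controls. The means were 3.21 and 4.03, a difference of 0.82 (SE 0.34, 95% confidence interval 0.07 to 1.56; adjusted p = 0.650 by limma; exact permutation p = 0.00794, the smallest the design allows). Without control 616 the difference was 0.44 (95% confidence interval 0.20 to 0.67, adjusted p = 0.203 by limma) and the groups remained apart, as 1.51% of all probes then did. The 10 spots of this probe, of which at least 4 were usable on each array, had an SD of 0.032 to 0.12 on a single array. The dimmer probe differed by 0.73 (SE 0.32, adjusted p = 0.660 by limma), or 0.39 without control 616, with 4 of 5 hypothyroid livers above every control. Ratios scaled to the same spread on each array, and the liver channel taken alone, let the groups of the brighter probe overlap.

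Peg3, a paternally expressed zinc finger gene, was also read by 2 probes. The brighter one was at 0.52 (616), 1.61 (391), 1.69 (881), 1.70 (522) and 1.86 (832) in controls. In hypothyroid livers it was at 1.80 (891), 2.29 (311), 2.30 (626), 2.46 (576) and 2.58 (723). Here 4 of 5 hypothyroid livers were above every control. The difference was 0.81 (SE 0.24, 95% confidence interval 0.28 to 1.34; adjusted p = 0.482 by limma; exact permutation p = 0.0159), or 1.75-fold, and 0.57 (95% confidence interval 0.27 to 0.87) without control 616. The dimmer probe was at 0.54, 0.58, 0.61, 0.66 and 0.67 in controls and at 0.80, 0.94, 0.99, 1.08 and 1.37 in hypothyroid livers. The groups did not overlap, as for 1.08% of all probes in this direction, and control 616, at 0.58, lay among the other controls. The difference on this probe was 0.42 (SE 0.097, 95% confidence interval 0.21 to 0.64; adjusted p = 0.279 by limma; exact permutation p = 0.00794), and it was 0.42 without control 616. This was the member value that control 616 moved least. Scaling the ratios left these groups apart, and the liver channel alone let them overlap.

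Gpc3 had a higher mean in hypothyroid liver that did not pass the test. Controls were at 2.87 (616), 4.09 (391), 4.43 (881), 4.47 (522) and 4.82 (832), and hypothyroid livers between 4.48 and 4.78. All hypothyroid values lay within the range of the controls. The difference was 0.53 (SE 0.30, 95% confidence interval -0.12 to 1.18; adjusted p = 0.721 by limma) and fell to 0.21 (95% confidence interval -0.06 to 0.49) without control 616.

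Mest, Plagl1 and Dlk1 had the smallest differences in size among the members measured. Each was less than the SD of the controls, which includes control 616. That also held for Gpc3 (0.53 against an SD of 0.75) and for the brighter (0.82 against 0.87) and dimmer (0.73 against 0.76) Igf2 probes. The SD of the controls therefore does not set Mest, Plagl1 and Dlk1 apart. Mest, a hydrolase-like protein of mesoderm, was between 2.997 and 3.92 in controls and between 3.36 and 3.71 in hypothyroid livers, a difference of 0.14 (SE 0.18, 95% confidence interval -0.26 to 0.53; adjusted p = 0.864 by limma). Without control 616 the difference was 0.038. Its direction turned, to -0.23, when the ratios were scaled to the same spread. Plagl1, a zinc finger regulator of other imprinted genes, was near the reference level, between 0.00 and 0.38 in controls and between -0.06 and 0.20 in hypothyroid livers, with a difference of -0.08 (SE 0.085, 95% confidence interval -0.27 to 0.11; adjusted p = 0.820 by limma), which was -0.023 without control 616, 0.033 from the liver channel alone and 0.032 after median centring. Dlk1, a membrane protein of progenitor cells, was the only member far below the reference, at -2.62, -2.13, -2.11 and -2.09 in 4 controls and -0.44 in control 616. In hypothyroid livers it was between -2.36 and -1.91. Its difference of -0.27 (SE 0.33, 95% confidence interval -1.003 to 0.46; adjusted p = 0.850 by limma) became 0.09 (95% confidence interval -0.20 to 0.38) without control 616. The intervals still hold changes of some size in either direction.

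**Figure D2:**
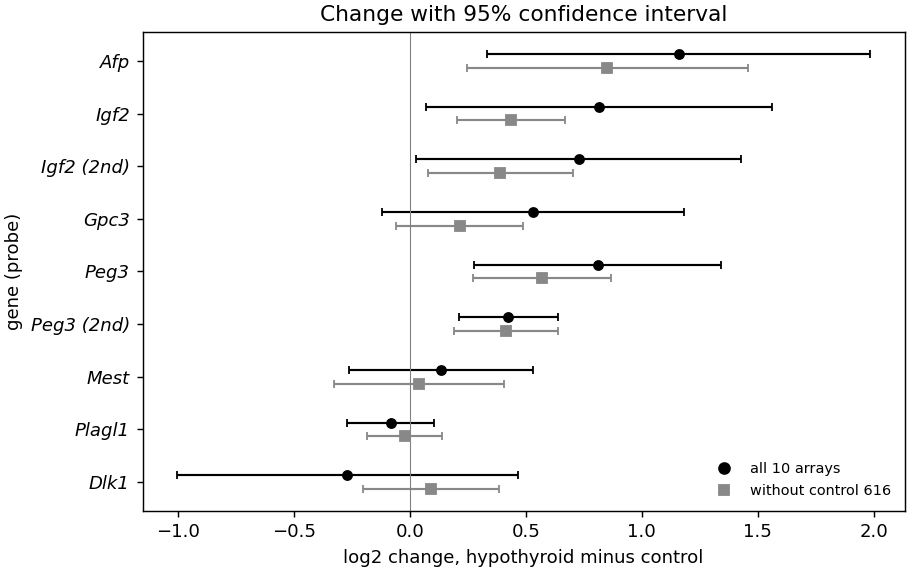
The log2 change of each member probe (hypothyroid minus control, horizontal axis) is plotted with its 95% confidence interval from all 10 arrays (black circles) and without control 616 (grey squares). The intervals of Afp and of both probes of Igf2 and Peg3 lie above 0 in both fits, and those of Gpc3, Mest, Plagl1 and Dlk1 include 0.

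Of the 6 slides, 4 held a control and a hypothyroid array, so these pairs share their hybridization and scan. The brighter Igf2 probe and both Peg3 probes were higher in the hypothyroid array of all 4 slides. The dimmer Igf2 probe was higher in 3 of 4 slides and lower on slide 141 (-0.25). For the brighter Igf2 probe the difference within slides was 0.12 (slide 141), 0.39 (136), 0.57 (139) and 2.34 (100, with control 616). For the brighter Peg3 probe it was 0.10 (139), 0.59 (136), 0.60 (141) and 1.78 (100). Afp was higher in 3 of 4 slides, by 0.19 (139), 1.13 (136) and 2.44 (100), and was level on slide 141 (-0.03). Gpc3 was higher in 3 of 4 slides, and Mest and Dlk1 in 2 of 4. Slide 100 gave the highest within-slide value for Afp, both Igf2 probes, Gpc3 and the brighter Peg3 probe. With slide as a fixed block, Afp differed by 0.93, Igf2 by 0.86 and Peg3 by 0.77, and 1 of the 7 genes had an unadjusted p below 0.05 by limma.

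**Figure D3:**
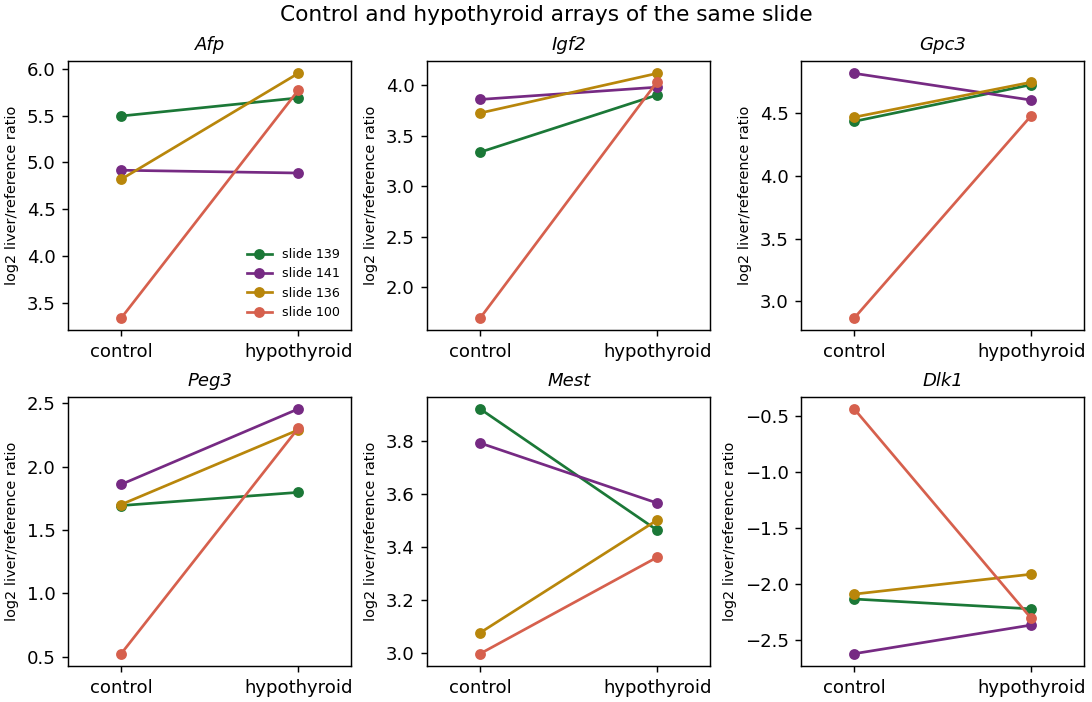
Each line joins the log2 liver/reference ratio (vertical axes, which differ between panels) of the control and the hypothyroid array of the same slide for the brightest probe of 6 members. All 4 lines rise for Igf2 and Peg3, slide 141 is level for Afp, and the line of slide 100, which starts at control 616, is the steepest upward line for Afp, Igf2, Gpc3 and Peg3.

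Averaged over the 7 genes, the ratio was 1.62 (616), 2.07 (391), 2.26 (522), 2.37 (832) and 2.41 (881) in controls and 2.44 (576), 2.48 (891), 2.52 (626), 2.69 (311) and 2.82 (723) in hypothyroid livers. The hypothyroid means were all above the controls, with the nearest values 2.41 and 2.44. This average has no share over all probes to set beside it. It pools genes whose changes ran from -0.27 (Dlk1) to 1.16 (Afp). Over the 9 arrays other than control 616 the brightest probes of Igf2 and Peg3 ran together at r = 0.81, Igf2 and Gpc3 at 0.73, and Afp with Gpc3, Peg3 and Igf2 at 0.62, 0.60 and 0.59, while Afp and Mest were at 0.44 and Dlk1 and Gpc3 at -0.15. These correlations describe 9 arrays that hold both groups and share reference and platform. The named genes most like Afp over those arrays were Supt5, Bex1 and Olfr424 (r = 0.95 for each), whose values over all 10 arrays were 0.374, 0.974 and 0.687. Of the 3, Bex1 kept the likeness with control 616 included, and it differed by 0.83 between groups (adjusted p = 0.316 by limma), while the changes of Supt5 and Olfr424 were both 0.09.

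No other imprinted gene passed the test. Of 24 listed, 18 were tested, and 0 passed the adjusted p by limma. At an unadjusted p below 0.05, 2 were higher and 0 lower, against 3.39% and 4.07% of all probes. The median change of the 18 was 0.01, or 0.03 without control 616. The highest ranked was Grb10, an adaptor that restrains insulin and growth factor signalling, at -0.57, -0.34, -0.24, -0.19 and 0.06 in controls and 0.10, 0.16, 0.32, 0.32 and 0.43 in hypothyroid livers. The groups did not overlap, as for 1.08% of all probes in this direction. The difference was 0.52 (SE 0.11, adjusted p = 0.246 by limma) on its brightest probe and 0.24 and 0.07 on its other 2 probes. Cdkn1c, a growth-restraining inhibitor of cyclin-dependent kinases, differed by 0.55 (SE 0.25, adjusted p = 0.668 by limma), and by 0.28 without control 616. Without that array Dio3 differed by 0.41 and Rasgrf1 by 0.11. With all arrays Dio3, the deiodinase that inactivates thyroid hormone and an imprinted neighbour of Dlk1, differed by 0.67 (SE 0.32, adjusted p = 0.683 by limma), and Rasgrf1 by 0.19 (SE 0.086, adjusted p = 0.670 by limma).

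The other fetal and oncofetal genes were mixed. Of 16 tested, 3 were higher and 1 lower at an unadjusted p below 0.05, against 3.39% and 4.07% of all probes. Without control 616, 1 was higher and 1 lower at that p. The median change was -0.22, which became 0.04 without control 616. Igf2bp3, an RNA-binding protein of fetal and tumour cells that binds Igf2 mRNA, was at -0.04 (616), 0.45 (391), 0.49 (881), 0.52 (522) and 0.64 (832) in controls. In hypothyroid livers it was at 0.84 (576), 0.96 (311), 1.04 (723), 1.07 (891) and 1.07 (626). All hypothyroid livers were above all controls, a separation that 1.08% of all probes had in this direction. The difference was 0.59 (SE 0.12, adjusted p = 0.192 by limma) on its brightest probe and 0.53 and 0.19 on the others. Without control 616 it was 0.47, and Igf2bp3 was then the 1 gene of this list with an adjusted p below 0.05 by limma. In that fit 34 of 31670 probes passed, against 3 with all arrays. Lpl, lipoprotein lipase, differed by 0.54 (SE 0.23, adjusted p = 0.655 by limma) and Igfbp2, a binding protein of insulin-like growth factors, by 0.44 (SE 0.18, adjusted p = 0.650 by limma), while Tff3 differed by -0.50 (SE 0.20, adjusted p = 0.626 by limma). Without control 616 Igfbp2 differed by 0.29.

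Of the 9 regulators of Afp tested, 0 had an unadjusted p below 0.05 by limma, and their changes lay between -0.09 and 0.37 with a median of 0.09, or 0.05 without control 616. The 3 with the smallest p were Trp53 (0.17), Nr5a2 (0.29) and Cebpa (0.37, but 0.08 without control 616). Trp53 had no value on control 616, so its change already left that array out. The dimmer probes of Trp53 and Cebpa were at 0.06 and 0.18. The repressors Zhx2 and Zbtb20 were among the 9, with changes of 0.04 and 0.09 (0.13 for Zbtb20 without control 616). The Zhx2 probe was the dimmest of the 9, with a mean log2 intensity of 6.22, which limits what it can show. Of the 9 genes, 8 were well above background on all arrays.

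Most genes that mark the mature liver had higher means in hypothyroid liver. Of 22 liver maturation genes tested, 19 had a higher mean, as had 14918 of all 32056 probes. Without control 616 it was 16 of the 22, and 15653 of 31670 probes. The mean ratio of the 22 genes was 2.44 in control 616 and between 3.87 and 4.13 in the other controls. Hypothyroid livers lay within that range, between 3.99 and 4.11. The median change was 0.36, or 0.12 without control 616. At an unadjusted p below 0.05, 2 were higher and 1 lower, against 3.39% and 4.07% of all probes. Without control 616, 5 were higher and 2 lower at that p, against 3.48% and 3.94% of all probes. Tat, tyrosine aminotransferase, which is switched on after birth, differed by 0.61 (SE 0.22, adjusted p = 0.598 by limma), Car3 by 0.36 (SE 0.14, adjusted p = 0.625 by limma) and G6pc, glucose-6-phosphatase, by 0.37 (SE 0.17, adjusted p = 0.671 by limma). Without control 616 these differences were 0.34 for Tat, 0.21 for Car3 and 0.18 for G6pc. Tat had no value on control 522, which both of its differences therefore left out.

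Hepatocyte markers had higher means beside the members. All 8 had a higher mean in hypothyroid liver, 1 of them at an unadjusted p below 0.05, against 3.39% of all probes. Their changes lay between 0.53 and 0.94, with a median of 0.67, or 0.32 without control 616. Alb, albumin, differed by 0.66 (SE 0.29), Trf, transferrin, by 0.94 (SE 0.43), Ahsg by 0.54 (SE 0.26) and Apoa1 by 0.67 (SE 0.35), with adjusted p of 0.660, 0.670, 0.683 and 0.711 by limma. Without control 616 Trf differed by 0.48, Ahsg by 0.34 and Apoa1 by 0.29. The mean ratio of the 8 markers was 2.58 in control 616, between 4.22 and 4.92 in the other controls and between 4.29 and 4.99 in hypothyroid livers. Of 16 exocrine pancreas markers tested, 13 were lower in hypothyroid livers at an unadjusted p below 0.05, against 4.07% of all probes. Their median change was -1.91, or -1.84 without control 616, and 0 passed the adjusted p by limma. Their mean ratio was 4.10 in control 832, 4.15 in control 522 and 2.49 in control 616, against 0.66 to 0.71 in the other 2 controls and 0.61 to 0.73 in hypothyroid livers. Among those with the smallest p were Cela1 (-2.48), Cela2a (-1.80) and Cpa1 (-2.03). The 11 mesenchymal and stellate markers had a median of -0.37 (-0.13 without control 616), with Lum at -0.77, Reln at 0.36, Postn at 0.20 and Col1a1 at -0.80. Erythroid markers had a median of 0.04, or 0.0039 without control 616 (Klf1 0.48, Hba-a1 0.55, Gata1 0.08), skeletal muscle markers -0.20, or -0.09 without it (Mylpf -0.26, Acta1 -0.62, Tnnt3 -0.22, Tnnc2 -0.30) and proliferation markers -0.08, or 0.01 without it (Aurkb -0.42, Bub1 -0.34, Top2a -0.32, Mcm2 -0.20). Of these genes, without control 616 Reln was at 0.21, Col1a1 at -0.37, Hba-a1 at 0.25, Gata1 at 0.04, Acta1 at -0.41, Bub1 at -0.19, Top2a at -0.07 and Mcm2 at -0.02. The part of these cell types in the member values was not tested.

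**Figure D4:**
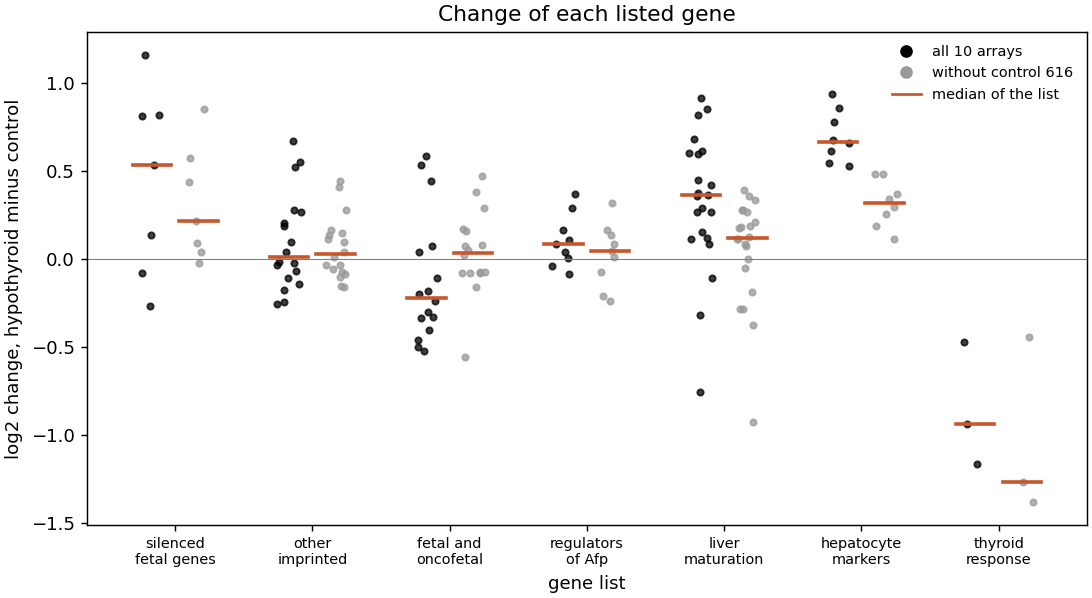
Each point is the log2 change (hypothyroid minus control, vertical axis) of a gene, given by its brightest probe, for 7 gene lists (horizontal axis), from all 10 arrays (black) and without control 616 (grey), with the median of each list as a bar. The 8 hepatocyte markers lie above 0 in both fits, and the 3 thyroid hormone response genes lie below it.

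The miRNAs made from H19, Igf2 and Mest were measured by TLDA as delta Ct, the threshold cycle less that of U6 RNA, so that a higher delta Ct means less miRNA and 1 cycle is 1 unit of log2. The study describes the microarrays as run on livers of the same mice. The labels tie no TLDA animal to a microarray, so the assays were not matched by animal. None of the 4 hosted miRNAs tested passed the test (adjusted p below 0.1 by limma), as 0% of 367 miRNAs did, while 25 of them had an unadjusted p below 0.05.

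For H19, miR-675-3p had delta Ct values of 10.29, 10.04, 10.16 and 9.77 in controls 1 to 4 and 10.21, 9.88, 10.91 and 12.18 in hypothyroid animals 1 to 4. Hypothyroid animals 3 and 4, both of study 2, had the lowest levels, and animals 1 and 2 lay within the control range. The level differed by -0.73 (SE 0.50, 95% confidence interval -1.89 to 0.43; adjusted p = 0.649 by limma; exact permutation p = 0.229), and by -0.27 without hypothyroid animal 4. It was 0.12 higher in hypothyroid livers in study 1 and 1.58 cycles lower in study 2, a contrast with an adjusted p of 0.370 by limma. The other arm, miR-675-5p, was undetermined after 40 cycles in all 8 animals, so no fold is given.

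For Igf2, miR-483* had delta Ct values of 9.93, 9.62, 9.48 and 9.54 in controls and 9.78, 10.21, 10.43 and 9.59 in hypothyroid animals. The groups overlapped, and the level differed by -0.36 (SE 0.29, 95% confidence interval -1.03 to 0.31; adjusted p = 0.677 by limma). Without hypothyroid animal 3 it differed by -0.22, and relative to the mean of the miRNAs in place of U6 by -0.66. The host mRNA had a higher mean on the microarrays.

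For Mest, miR-335-5p was at 8.21, 8.13, 7.78 and 7.41 in controls and 7.45, 7.75, 7.24 and 7.08 in hypothyroid animals. Its level differed by 0.50 (SE 0.30, 95% confidence interval -0.19 to 1.19; adjusted p = 0.623 by limma) and was higher in both studies, by 0.57 and 0.43. The arm miR-335-3p, at 9.44, 9.24, 8.71 and 8.50 in controls and 8.61, 9.24, 8.94 and 9.33 in hypothyroid animals, differed by -0.06 (SE 0.32, 95% confidence interval -0.80 to 0.69; adjusted p = 0.952 by limma), higher by 0.41 in study 1 and lower by 0.53 cycles in study 2. The groups overlapped for both arms.

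**Figure D5:**
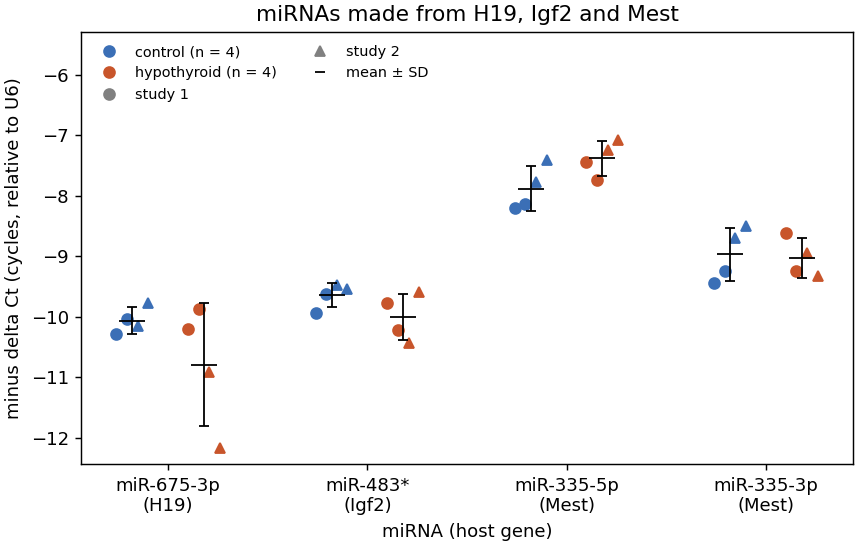
Minus delta Ct relative to U6 (cycles, vertical axis, higher means more miRNA) is plotted for each of 4 control and 4 hypothyroid animals for the miRNAs hosted by H19, Igf2 and Mest (horizontal axis), with circles for study 1, triangles for study 2 and the mean and SD of each group. The groups overlap for all 4 miRNAs, and hypothyroid animals 3 and 4 are the lowest for miR-675-3p.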

How the data were processed

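Liver mRNA was measured on 10 Agilent 2-colour microarrays (5 control, 5 hypothyroid) and miRNA on TLDA cards in 8 animals. Groups came from the labels. The members and gene lists were chosen with earlier results of these data known. The authors deposited scanner output, with median spot and background intensities and the software's processed intensities, not normalized between arrays, and for TLDA the threshold cycles. Their table of fold changes, p-values and q-values was not used.

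Channels of slide 141 were exchanged. Median intensities were corrected with normexp (offset 50) and loess (span 0.2), flagged spots were dropped and spots of a probe averaged. A probe was kept where, on 4 arrays of a group, liver signal exceeded the negative control spots (their 5% trimmed mean with 3 trimmed SDs added). Accessions gave 23374 probes a symbol through RefSeq (GRCm38.p6), and 17800 stayed unnamed. limma 3.58.1 in R 4.3.3 tested hypothyroid minus control, in place of the MAANOVA Fs test of the methods, at an adjusted p of 0.05. A gene was given by its probe with the highest mean intensity. Named were all members, the 3 response genes, and of each list the genes past the adjusted p and the 4 with the smallest p, and the 3 genes most like Afp (for H19, which had no probe, none). Some genes that this rule names are not reported here. Delta Ct was computed from Ct, with undetermined wells left out, where 2 or more animals of each group had a reading, and the threshold was an adjusted p of 0.1. Exact permutation tests were two-sided. Programs were tested on simulated data. Alternatives covered dyes, background, normalization, filter, slide, probe averaging, U6, undetermined wells, study, pairing and each animal left out. Scaling of the ratios, and leaving out control 616 with slide 141, were chosen after seeing the data.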

Additional observations from a re-analysis of the deposited data

Results flagged for a closer look

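Control 616 lay far from the other 4 controls on 4 member probes, by the gap to the nearest control over the range of the group. The share was 0.759 for the brighter Igf2 probe and 0.821 for the dimmer one, 0.811 for the brighter Peg3 probe, where this array was the lowest, and 0.757 for Dlk1, where it was the highest. Of 26 groups examined these 4 passed, and chance passes about 1 in 20. The same array had the shallow slope over the probes above background with a value on every array. Without it the differences were 0.44 and 0.39 for the Igf2 probes, 0.57 for Peg3 and 0.09 for Dlk1.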

How the results depend on the processing

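Afp, Gpc3 and the brightest probes of Igf2 and Peg3 were higher in hypothyroid liver under all 24 alternatives, from 0.67 to 1.46, 0.11 to 0.73, 0.44 to 1.06 and 0.57 to 1.00, and 0 members had an adjusted p below 0.05 by limma under any, the smallest being 0.168 for the dimmer Peg3 probe. The number of members with an unadjusted p below 0.05, 3 with all arrays, was 0 with the dyes as labelled, 1 with median centring, 1 with slide as a fixed block and 2 to 4 when each array was left out. Direction turned for Plagl1 (0.032 with median centring, 0.033 for the liver channel alone), Mest (-0.23 with scaled ratios) and Dlk1 (0.018 without control 616 and slide 141, and -0.46 to 0.091 when each array was left out). The cause was not tested.

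Of all probes 3 passed the adjusted p. The number was 0 with the dyes as labelled (107 at an unadjusted p below 0.05), without slide 141 (2322) and with slide as a fixed block (2236), 1 with processed signals, median centring, the liver channel alone, scaled ratios, or without control 616 and slide 141, 5 above background on all arrays, 8 without background correction, 14 with slide as a random block and 1 to 34 when each array was left out, the 34 without control 616.

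For TLDA the replicate block left miR-675-3p at -0.73 with an adjusted p of 0.643 by limma and changed no call. Animals of the groups share only a number, without pairing in the labels, and the correlation of same-numbered deviations was -0.01, -0.04, 0.15 and -0.22. Leaving out each animal gave -0.22 to 0.10 for miR-335-3p, which turned, -1.04 to -0.27 for miR-675-3p and -0.50 to -0.22 for miR-483*, the last without hypothyroid animal 3. Without U6, relative to the mean of the miRNAs read in all animals, miR-675-3p differed by -1.03, miR-483* by -0.66, miR-335-3p by -0.36 and miR-335-5p by 0.21, all lower than with U6. All member probes were well above background on every array.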
